A study of Mus musculus with 22 samples.

Results

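The 10 genes described here encode integrin subunits that are not confined to leukocytes: the alpha subunits Itga1, Itga3, Itga5, Itga8 and Itgav and the beta subunits Itgb1, Itgb3, Itgb5, Itgb6 and Itgb8. They were chosen by gene symbol, through the platform's annotation of the spots, and all 10 were among the 17039 genes tested. They were followed in C57BL/6 mouse kidneys 1, 2, 5 and 9 days after ligation of the left ureter, which dams urine and raises pressure in the kidney (obstructed, 3, 3, 3 and 4 replicates), and after a sham operation in which that ureter was freed but not tied (sham, 2 replicates at each day). The labels name no allele or drug in either group, and give neither the age nor the sex of the mice. RNA of a kidney was hybridised with Cy5 against a Cy3 mouse universal reference RNA on a 2-colour array. Values are log2 ratios of kidney to reference RNA, so levels are compared between kidneys for one gene and never between genes. No source used here says that each sample came from a separate mouse, so the p-values measure the spread between these samples.

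Integrins are cell surface receptors made of one alpha and one beta chain, which hold cells to the extracellular matrix and link it to the actin cytoskeleton. The beta 1 chain pairs with many alpha chains: with alpha 1 it binds collagens, with alpha 3 laminins, with alpha 5 fibronectin and with alpha 8 nephronectin, a ligand needed for the growth of the ureteric bud into the kidney. The alpha v chain pairs with beta 1, beta 3, beta 5, beta 6 or beta 8, and its heterodimers bind vitronectin, fibronectin or the latent form of transforming growth factor beta (TGF-beta). The alpha v beta 6 and alpha v beta 8 receptors are known activators of latent TGF-beta, a factor that drives scarring in the obstructed kidney.

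Averaged over the 4 days, 6 of the 10 subunits rose in obstructed kidneys: Itgav, Itga5, Itgb1, Itgb3, Itga3 and Itgb5. By the same average 26.9% of all genes rose and 25.9% fell. For Itga3 and Itgb3 the rise was not shared by all spots of the gene, and 1 spot of Itgb1 was not called. None of the 10 fell by that average, and Itga1, Itga8, Itgb6 and Itgb8 did not pass the test. By the mean of the days the alpha v chain and 3 of its partners, beta 1, beta 3 and beta 5, thus rose. Its partners beta 6 and beta 8 did not. At day 1 Itgav was called higher and none of those 3 partners was, but timing was not tested between genes. The day 1 differences of Itgb1 (0.24 ± 0.14) and Itgb3 (0.37 ± 0.23) were positive though not called. At single days the pattern was not the same for every subunit: Itgb5 was lower than in sham kidneys at day 1 and higher at days 5 and 9, and Itgb8 was lower at day 9.

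The stretches upstream of 4 of the genes are shown because these members moved in different ways: Itga5 and Itgb1 encode the fibronectin receptor, both chains of which rose, and Itgb5 and Itgb8 encode partners of alpha v, of which Itgb5 rose late and Itgb8 was lower at day 9. Each is the 250 bases before the annotated start of the gene, from RefSeq on build GRCm38.p6, 5′ to 3′ on the strand of the gene. Itga5 lies at chr15:103366792-103367041 on the minus strand, Itgb1 at chr8:128685404-128685653 on the plus strand, Itgb5 at chr16:33829415-33829664 on the plus strand and Itgb8 at chr12:119238277-119238526 on the minus strand. Capitals mark GGGCGG, the core read by the Sp family of zinc finger factors, or its complement CCGCCC, and in Itgb1 also GGAATG, the core read by TEAD factors.
Itga5: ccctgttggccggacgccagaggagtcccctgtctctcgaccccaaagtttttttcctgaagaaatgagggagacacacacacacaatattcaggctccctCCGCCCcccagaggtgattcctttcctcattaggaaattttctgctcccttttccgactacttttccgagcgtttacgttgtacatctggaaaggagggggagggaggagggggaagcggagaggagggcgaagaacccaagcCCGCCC
Itgb1: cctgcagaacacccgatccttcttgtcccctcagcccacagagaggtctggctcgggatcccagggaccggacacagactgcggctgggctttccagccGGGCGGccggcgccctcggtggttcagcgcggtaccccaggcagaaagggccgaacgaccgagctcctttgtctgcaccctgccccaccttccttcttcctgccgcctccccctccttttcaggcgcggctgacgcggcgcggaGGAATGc
Itgb5: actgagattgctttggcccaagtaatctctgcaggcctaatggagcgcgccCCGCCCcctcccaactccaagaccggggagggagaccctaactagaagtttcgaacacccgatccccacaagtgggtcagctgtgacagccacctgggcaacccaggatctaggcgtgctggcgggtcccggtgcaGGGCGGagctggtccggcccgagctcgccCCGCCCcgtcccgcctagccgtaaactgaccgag
Itgb8: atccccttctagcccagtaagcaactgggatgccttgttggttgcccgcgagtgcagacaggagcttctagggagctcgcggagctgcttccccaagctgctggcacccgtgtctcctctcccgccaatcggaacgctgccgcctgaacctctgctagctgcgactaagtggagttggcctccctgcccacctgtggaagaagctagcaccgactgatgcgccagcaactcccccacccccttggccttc

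A promoter window of 300 bases, the 250 above and the 50 that follow the start, was found for 9 of the 10 genes, in 11 windows, since Itga3 and Itgb6 have a pair each. For Itgb3 the table held no window. GGGCGG, searched on both strands, was present in the windows of all 5 members with a window that rose by the mean of the days (Itga3, Itga5, Itgav, Itgb1 and Itgb5), and in none of the 4 that did not pass (Itga1, Itga8, Itgb6 and Itgb8). Counted by window, 6 of the 11 member windows held it, against 35.7% of all 32851 promoter windows. The share of G and C bases was 52.3 to 67.3% in windows of those 5 members and 38.3 to 60.7% in windows of those 4. Its part in the matches was not tested. Counted back from the base before the start as position -1, the first base of the match lay at -149 and -6 in Itga5, at -151 in Itgb1, and at -199, -63 and -34 in Itgb5. The TEAD core GGAATG was found in 14.7% of all windows and, among the members, in Itgb1 alone, at position -7. The AP-1 core TGANTCA was in 7.81% of all windows and in 1 of the 11 member windows, that of an Itga3 start. The motifs were picked with the expression results known, and a match is a run of letters and not a bound site. The windows of Itgav, Itga8 and Itga3, and 1 of the 2 of Itgb6, belong to other starts than the outermost base of the gene.

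Of the 39 spots that carry these genes, 38 passed the filter on missing values, and the exception was 1 of 6 spots of Itgav. The genes lie on GRCm38.p6, in RefSeq, at chr2:12106632-12301985 (Itga8), chr2:60598292-60722603 (Itgb6), chr2:83722303-83806917 (Itgav), chr8:128685654-128733579 (Itgb1), chr11:95044475-95076844 (Itga3), chr11:104608000-104670476 (Itgb3), chr12:119162803-119238276 (Itgb8), chr13:114958079-115101964 (Itga1), chr15:103344286-103366791 (Itga5) and chr16:33829665-33949338 (Itgb5). Each array gave a measured ratio at 35747 to 39871 of its 45220 spots, and the number of arrays limits the precision. The kidney identity of the RNA was checked with 10 proximal tubule markers, whose mean log2 ratio to reference was 4.08 to 5.19 in obstructed and 5.44 to 5.73 in sham kidneys. In whole kidney, fewer cells of a type and less RNA per cell cannot be told apart. A difference below is obstructed minus sham on the log2 scale with the standard error (SE) of a limma fit, and "rose", "fell" or "called" means an adjusted p (Benjamini-Hochberg over 17039 genes) under 0.05.

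**Figure D1:**
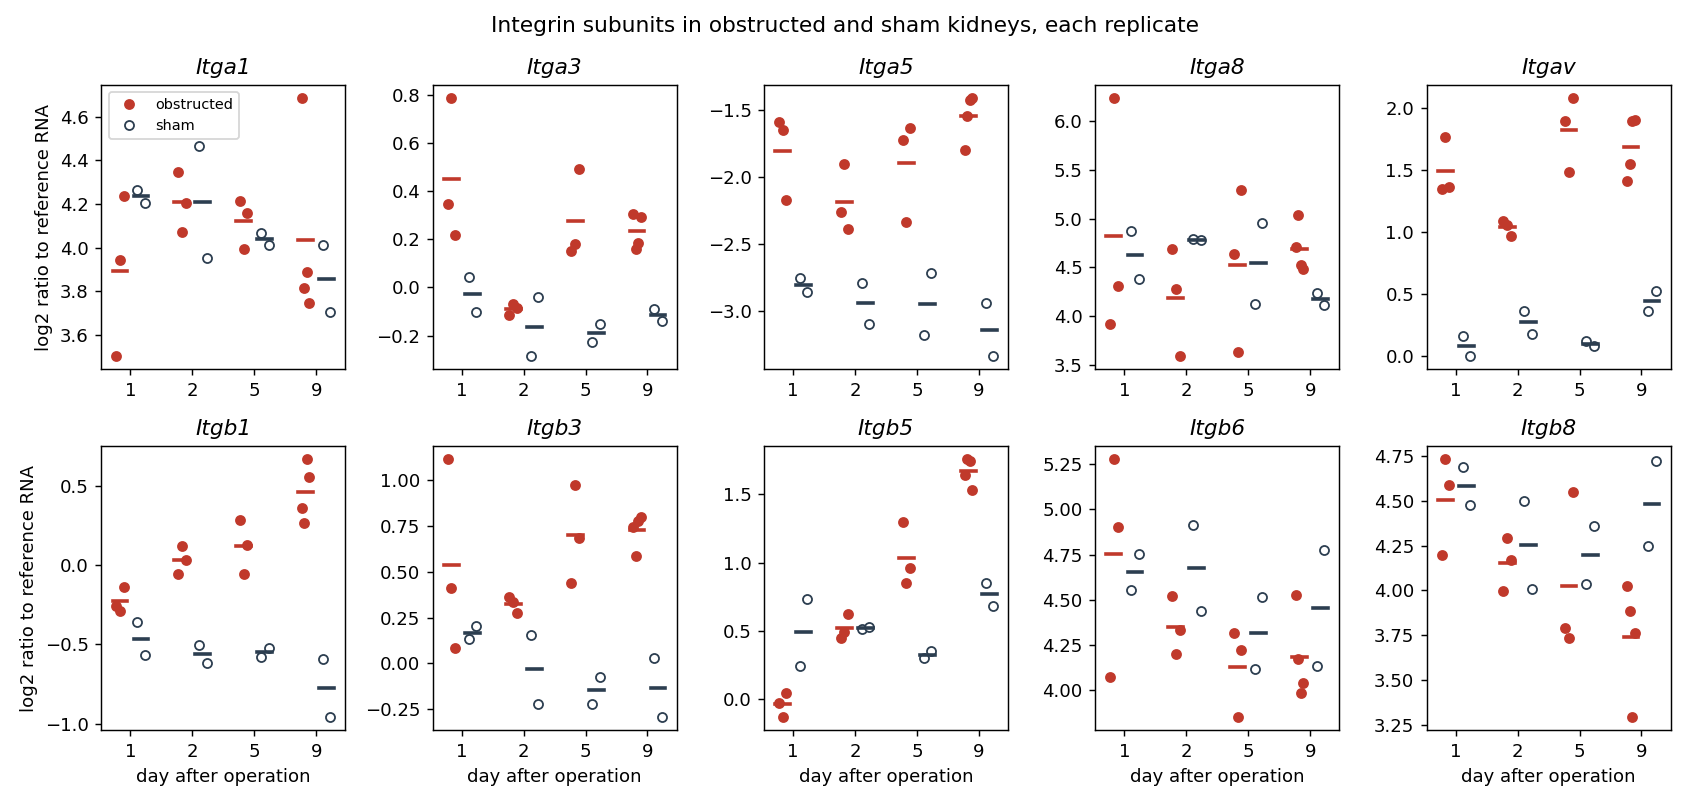
Log2 ratio to the reference RNA of the 10 integrin subunits (vertical axis, scaled for each gene) by day after operation, spaced evenly (horizontal axis); filled red points are obstructed and open points sham replicates, and short lines are group means. In Itgav, Itga5 and Itgb1 all 13 obstructed replicates lie above all 8 sham replicates (with 2 sham arrays of day 1 averaged), while in Itga1, Itga8 and Itgb6 the groups are mixed.

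The beta 1 chain, the common partner of the matrix receptors, showed a difference that was larger at later days. At day 1 Itgb1 stood at -0.26, -0.29 and -0.14 in obstructed kidneys, against -0.36 and -0.57 in sham kidneys. At day 2 it was -0.059, 0.12 and 0.029 in obstructed and -0.50 and -0.62 in sham kidneys, and at day 5 it was 0.28, -0.057 and 0.12 in obstructed and -0.58 and -0.52 in sham kidneys. At day 9 it reached 0.36, 0.27, 0.67 and 0.55 in obstructed kidneys, against -0.59 and -0.96 in sham kidneys. The groups did not overlap at any day when the sham arrays S03L and S03R were averaged. Taken apart, those arrays of day 1 gave -0.099 and -0.62, and S03L lay above all 3 obstructed kidneys of its day. With arrays marked L alone, where S03L is the only sham array of that day, the difference at day 1 was -0.13. With S03L and S03R averaged, the difference was 0.24 ± 0.14 at day 1 (adjusted p = 0.297), 0.59 ± 0.14 at day 2 (adjusted p = 0.0121), 0.67 ± 0.14 at day 5 (adjusted p = 0.00317) and 1.24 ± 0.14 at day 9 (adjusted p = 6.01e-06). The effect at day 9 exceeded that at day 1 by 1.00 ± 0.20 (adjusted p = 0.00613), and a test of any difference between the 4 days gave an adjusted p of 0.0355. That call between days was lost with the image folder of the arrays as a block (adjusted p = 0.0517) and in 7 of 21 fits that left out 1 replicate (obstructed S05, S30, S35 or S36, or sham S03, S06 or S33), with an adjusted p of up to 0.166. The call at day 2 was lost without sham replicate S08 (0.65, adjusted p = 0.0555) and without sham replicate S39 (0.53, adjusted p = 0.0941).

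Itgb1 had 12 spots, the most among the 10 members, and 10 of them repeat each other. Within an array those 10 gave ratios with a median SD of 0.031, against an SD of 0.148 between replicates of a group, so that their scatter was small beside that between kidneys. The other 2 spots gave 0.56 ± 0.09, which was called, and 0.41 ± 0.24, which was not (adjusted p = 0.176). The 10 repeats were also averaged to 1 value first, a choice made after seeing the data. The difference at day 5 was then 0.42 (adjusted p = 0.0858), and the 4 days were no longer called different for Itgb1. That setting gives the 10 repeats together no more weight than each of the other 2 spots. Those 2 differed at day 5 by 0.63 ± 0.19, which was called, and -0.12 ± 0.45, which was not. By themselves the 10 repeats were all called at day 5, with differences of 0.63 to 0.79.

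Itga5, whose product joins beta 1 to form the main fibronectin receptor, was higher in obstructed kidneys at every day. Its log2 ratio was -1.59, -1.65 and -2.17 in obstructed and -2.75 and -2.85 in sham kidneys at day 1, and -2.26, -1.91 and -2.39 in obstructed and -2.79 and -3.09 in sham kidneys at day 2. At day 5 it was -1.73, -2.33 and -1.63 in obstructed and -3.18 and -2.71 in sham kidneys, and at day 9 it was -1.80, -1.55, -1.43 and -1.41 in obstructed and -2.94 and -3.33 in sham kidneys. The lowest of the 13 obstructed replicates, -2.39, was above the highest of the 8 sham replicates, -2.71. The differences were 1.00 ± 0.24 at day 1 (adjusted p = 0.00978), 0.76 ± 0.24 at day 2 (adjusted p = 0.0440), 1.05 ± 0.24 at day 5 (adjusted p = 0.00467) and 1.59 ± 0.23 at day 9 (adjusted p = 5.36e-05). By the mean of the days the gene was 2.14-fold higher, at 1.10 ± 0.12. It rests on a single spot. Under quantile normalization the mean difference was 0.64, still called, while days 1, 2 and 5 were not (0.70, 0.20 and 0.52). The call at day 1 was also lost without sham S06 (0.95, adjusted p = 0.0921), that at day 5 without sham S22 (0.81, adjusted p = 0.0781), and that at day 2 when any of 9 replicates was left out (adjusted p up to 0.236, without sham S39).

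Itga3, the alpha chain of a laminin receptor of podocytes and tubular epithelium, rose less. It was called at day 1 (0.48 ± 0.15, adjusted p = 0.0366) and day 5 (0.46 ± 0.15, adjusted p = 0.0312), but neither at day 2 (0.07 ± 0.15) nor at day 9 (0.35 ± 0.14, adjusted p = 0.0596). Its log2 ratios at day 9 were 0.30, 0.16, 0.18 and 0.29 in obstructed and -0.089 and -0.14 in sham kidneys, so the groups did not overlap there either. The mean of the days was 0.34 ± 0.07, or 1.27-fold. Its 3 spots did not agree: 2 of them rose, by 0.57 ± 0.08 and 0.62 ± 0.09, and the third differed by -0.17 ± 0.08, which was not called (adjusted p = 0.0909). The call at day 1 was lost without obstructed S05 (0.31), sham S03 (0.55) or sham S06 (0.41), and that at day 5 without obstructed S31 (0.35), sham S22 (0.43) or sham S32 (0.50). The day 5 call was also lost with no subtraction of the array median (0.34, adjusted p = 0.130) and with exact zeros kept (0.34, adjusted p = 0.126).

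Itga1, the alpha chain of a collagen receptor found on mesangial and endothelial cells, ran from 3.50 through a median of 4.07 to 4.69 in the 13 obstructed kidneys, and from 3.70 through 4.04 to 4.47 in the 8 sham kidneys. The groups overlapped, none of its 4 spots was called, and the mean difference was -0.022 ± 0.13. The highest value, 4.69, belonged to obstructed replicate S09 of day 9, while the 3 other replicates of that group lay at 3.75 to 3.89. The array of S09 had the fewest measured spots of the series.

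Itga8 encodes the nephronectin receptor's alpha chain, which marks mesangial cells in the adult kidney. It ran from 3.59 through a median of 4.53 to 6.24 in obstructed kidneys, and from 4.12 through 4.58 to 4.96 in sham kidneys, with a mean difference of 0.023 ± 0.28. The value of 6.24, in obstructed S05 of day 1, is the mean of only 2 spots. The third spot, which lay far lower than those 2 on every other array, had no measured ratio there. With the 2 spots measured on all 22 arrays the mean difference was -0.20 and that at day 1 was -0.25, neither of them called. Taken by themselves the 3 spots gave -0.18, -0.085 and -0.22 for the mean of the days, and none was called. With the spots averaged, every obstructed value of Itga8 lay below the sham values at day 2 and above them at day 9. Neither difference was called (-0.60 ± 0.57 and 0.51 ± 0.54), so groups of this size can be apart without a call.

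Itgav, the alpha chain shared by the receptors for vitronectin and latent TGF-beta, had the largest mean difference of the 10 subunits when all its spots that passed the filter were averaged, and the second largest, after Itga5, with fully measured spots alone. At day 1 its log2 ratio was 1.35, 1.77 and 1.36 in obstructed kidneys, against 0.16 and -0.00069 in sham kidneys. It was 1.09, 1.06 and 0.97 in obstructed and 0.36 and 0.18 in sham kidneys at day 2, and 1.90, 1.48 and 2.08 in obstructed and 0.12 and 0.078 in sham kidneys at day 5. At day 9 it was 1.41, 1.55, 1.89 and 1.90 in obstructed kidneys, against 0.36 and 0.52 in sham kidneys. No obstructed replicate overlapped a sham replicate. The differences were 1.41 ± 0.19 at day 1 (adjusted p = 0.00018), 0.77 ± 0.19 at day 2 (adjusted p = 0.0121), 1.72 ± 0.19 at day 5 (adjusted p = 2.32e-05) and 1.25 ± 0.18 at day 9 (adjusted p = 4.89e-05). The mean of 1.29 ± 0.09 is a 2.44-fold rise. The effect of day 2 looks smaller than that of its neighbours, but the test between days was not passed (adjusted p = 0.131).

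All 5 spots of Itgav that passed the filter were called higher by themselves, with mean differences from 0.67 ± 0.10 to 1.61 ± 0.28. The spot with 1.61 had no ratio on 3 sham arrays and another had none on 1 sham array, while every obstructed array was measured, so those spots passed the filter with their gaps in the lower group alone. The spots differ in level, and their average shifts with such gaps. With the 3 spots measured on all arrays the mean difference of Itgav was 1.05, still called, and lay below the 1.10 of Itga5. The call at day 2 was lost without sham S08 (0.86) and without sham S39 (0.67, adjusted p = 0.0998).

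**Figure D2:**
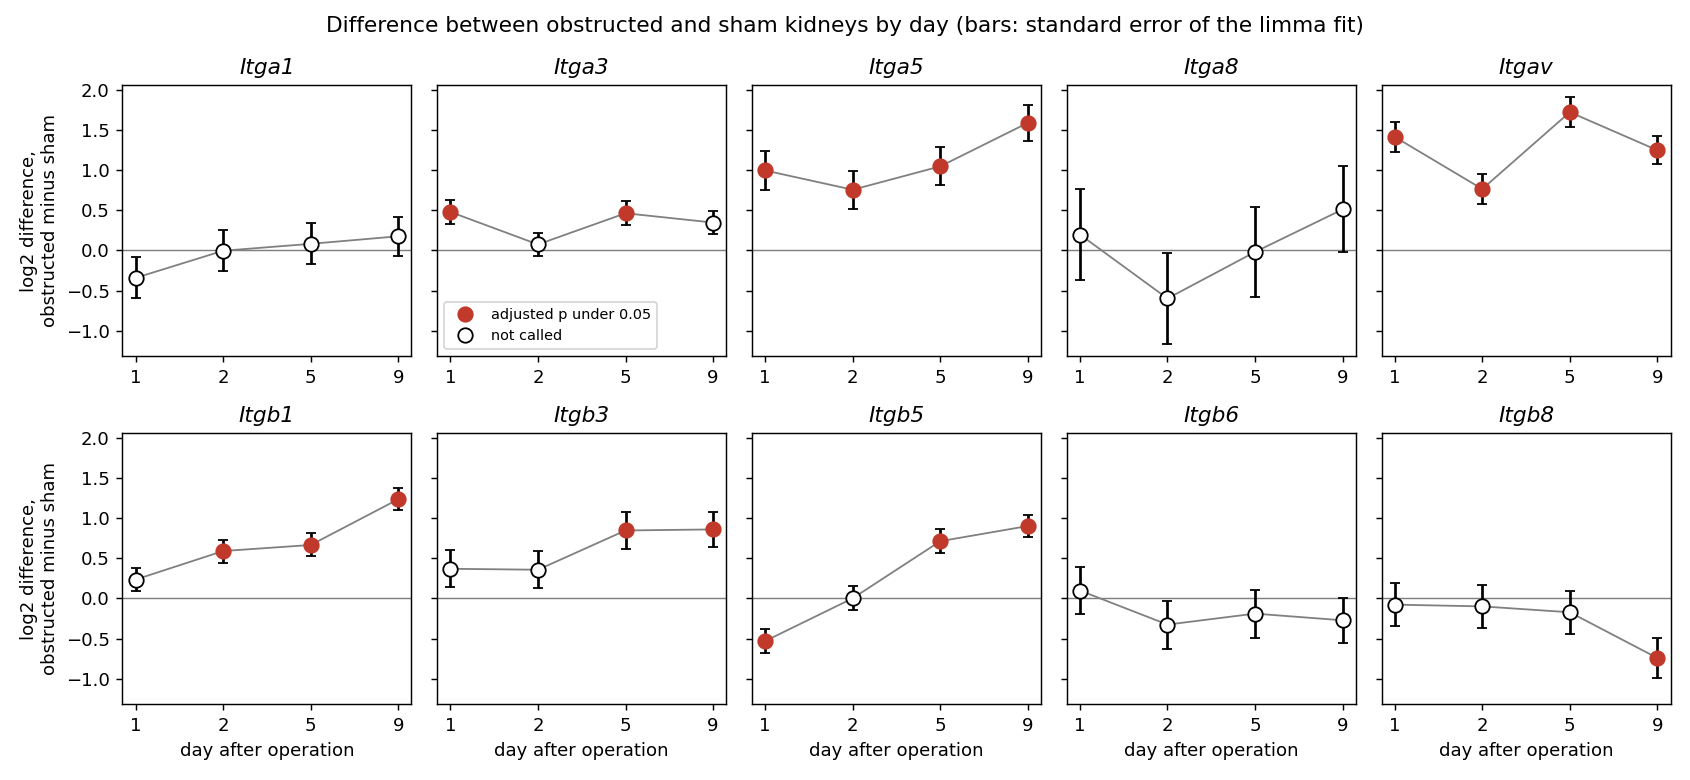
Difference in log2 ratio, obstructed minus sham (vertical axis, common to all panels), by day after operation, spaced evenly (horizontal axis); bars are the standard error of the limma fit, and filled red points have an adjusted p under 0.05. Itgav and Itga5 are called at all 4 days, and Itgb5 passes from a called fall of -0.53 at day 1 to a called rise of 0.90 at day 9.

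Among the beta partners of alpha v, Itgb5, which completes a vitronectin receptor, changed the sign of its difference over time. Its log2 ratio at day 1 was -0.031, -0.14 and 0.040 in obstructed kidneys, against 0.24 and 0.73 in sham kidneys. At day 2 it was 0.44, 0.49 and 0.62 in obstructed and 0.51 and 0.52 in sham kidneys. At day 5 it was 1.30, 0.85 and 0.96 in obstructed and 0.30 and 0.35 in sham kidneys, and at day 9 it was 1.64, 1.76, 1.74 and 1.53 in obstructed and 0.85 and 0.68 in sham kidneys. Every obstructed value lay below the sham values at day 1 and above them at days 5 and 9, and the groups overlapped at day 2. The differences were -0.53 ± 0.15 at day 1 (adjusted p = 0.0225), 0.0022 ± 0.15 at day 2, 0.71 ± 0.15 at day 5 (adjusted p = 0.00255) and 0.90 ± 0.14 at day 9 (adjusted p = 0.000119). The effect at day 9 exceeded that at day 1 by 1.43 ± 0.20 (adjusted p = 0.00182), and the 4 days differed (adjusted p = 0.00735). The mean of the days, 0.27 ± 0.07, therefore joins effects of opposite sign.

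The fall of Itgb5 at day 1 is the less firm side of that contrast. It was lost without obstructed S05 (-0.48, adjusted p = 0.0735), without sham S06 (-0.28, adjusted p = 0.365) and with the image folder of the arrays as a block (-0.44, adjusted p = 0.0800). The S06 array is in image folder 1 and the other arrays of day 1 are in folder 2, where the difference was -0.28. S06 is also marked R, and with arrays marked L alone the difference was -0.22. Itgb5 has a single spot.

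Itgb3, the beta chain of another vitronectin receptor and of the platelet fibrinogen receptor, rose at days 5 and 9. Its log2 ratios at day 5 were 0.44, 0.98 and 0.68 in obstructed and -0.22 and -0.072 in sham kidneys, a difference of 0.85 ± 0.23 (adjusted p = 0.0129). At day 9 they were 0.74, 0.58, 0.78 and 0.80 in obstructed and 0.027 and -0.29 in sham kidneys, a difference of 0.86 ± 0.22 (adjusted p = 0.00498). At days 1 and 2 the differences of 0.37 ± 0.23 and 0.36 ± 0.23 were not called. The call at day 5 was lost without sham S22 (0.77, adjusted p = 0.0967) and that at day 9 without sham S33 (0.70, adjusted p = 0.0825).

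The rise of Itgb3 comes from 1 of its 2 spots. The spot assigned to a cDNA entry differed by 1.32 ± 0.20 over the days, with -0.39 to 1.48 in obstructed kidneys against -1.44 to -0.49 in sham kidneys. The spot assigned to the RefSeq transcript differed by -0.10 ± 0.07 (adjusted p = 0.266), with 0.54 to 1.01 in obstructed and 0.67 to 1.03 in sham kidneys. Which of the 2 reads the transcript of the receptor chain was not tested. Its platelet partner Itga2b, singled out after its values were seen, fell by 0.51 on the log2 scale (SE 0.11, adjusted p = 0.000778). Of 8 platelet markers tested, Itga2b was the 1 that fell by the mean of the days, and 4 rose.

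Itgb6, an epithelial chain that with alpha v activates latent TGF-beta, was not called at any day or by any of its 3 spots. It ran from 3.85 through a median of 4.22 to 5.28 in obstructed kidneys, and from 4.12 through 4.53 to 4.91 in sham kidneys. The mean difference was -0.17 ± 0.15, and the daily differences lay between -0.33 ± 0.30 at day 2 and 0.099 ± 0.30 at day 1. With an SE of 0.28 to 0.30 at a day, a difference as small as that of Itga3 was not detectable here.

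Itgb8, another chain that with alpha v activates latent TGF-beta, was lower in obstructed kidneys at day 9. Its log2 ratio was 4.03, 3.89, 3.29 and 3.76 in obstructed kidneys, against 4.25 and 4.72 in sham kidneys, and the groups did not overlap. The difference was -0.74 ± 0.25 (adjusted p = 0.0285), or 0.598 of the sham level. It was -0.077 at day 1, -0.099 at day 2 and -0.17 at day 5, none of them called, and the test between days was not passed (adjusted p = 0.515). Of its 4 spots 1 fell over the days, by 0.83 on the log2 scale (SE 0.15, adjusted p = 0.000313), with 4.94 to 6.51 in obstructed and 6.37 to 7.16 in sham kidneys. The others gave -0.32, -0.21 and 0.27 and were not called. The day 9 call was lost without obstructed S35 (-0.59, adjusted p = 0.0751) and without sham S33 (-0.51, adjusted p = 0.275).

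**Figure D3:**
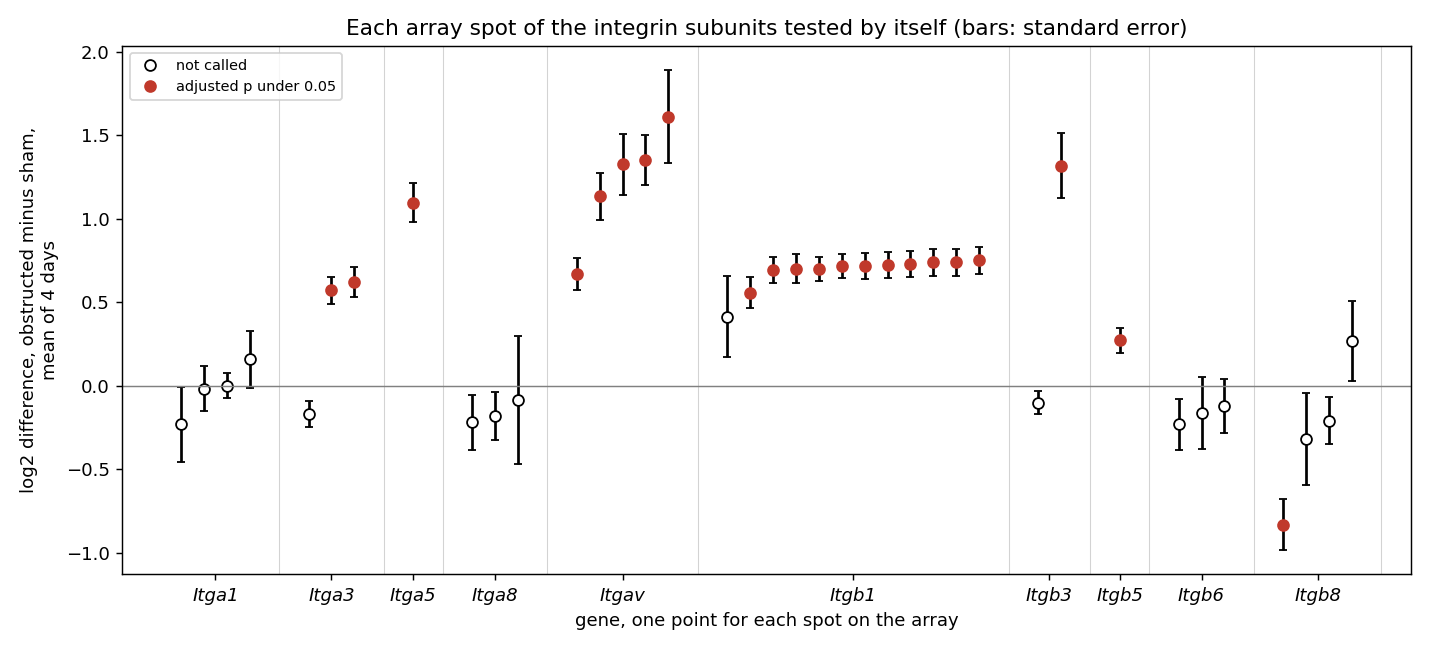
Difference in log2 ratio, obstructed minus sham, by the mean of the 4 days (vertical axis) for each array spot that passed the filter, grouped by gene (horizontal axis); bars are standard errors and filled red points have an adjusted p under 0.05 over all spots. The 10 repeat spots of Itgb1 lie on a level. Itga3, Itgb1, Itgb3 and Itgb8 each hold both called and uncalled spots.

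The arrays carry an image folder in their labels, the only hint of a batch, and day 5 has both operations in each of the 2 folders. Within folder 1 (2 obstructed, 1 sham) and folder 2 (1 obstructed, 1 sham) the day 5 differences were 1.57 and 2.00 for Itgav, 1.15 and 1.08 for Itga5, 0.69 and 0.64 for Itgb1, 0.93 and 0.76 for Itgb3, 0.78 and 0.61 for Itgb5 and 0.39 and 0.64 for Itga3. All 6 members kept their sign in both folders. With 1 or 2 arrays in an arm these are values and not calls. With the folder as a block all 6 remained called at day 5, with adjusted p of 0.0187 or less, while the day 1 call of Itga3 was lost (0.38, adjusted p = 0.124). At the other days no folder comparison was possible beyond folder 2, since folder 1 holds no obstructed kidney of those days.

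Set against the array as a whole, the counts of called members were these. At day 1, 3 members were called higher and 1 lower, where 7.99% and 9.32% of all genes were called higher and lower. At day 2, 3 were called higher and 0 lower, against 9.09% and 6.16% of all genes, and no member had an unadjusted p under 0.05 on the lower side. At day 5, 6 were called higher and 0 lower, against 14.9% and 11.1%, again with 0 lower at an unadjusted p under 0.05. At day 9, 5 were called higher and 1 lower, against 20.5% and 20.8%. By the mean of the days 6 were called higher and 0 lower, against 26.9% and 25.9%, with 0 on the lower side at an unadjusted p under 0.05. The median difference of the 10 members was 0.22, 0.038, 0.56 and 0.69 at days 1, 2, 5 and 9, where the median of all genes was within 0.038 of 0. The share of members called higher was thus above that of all genes at every day, and the share called lower was at or below it, apart from 1 of 10 against 9.32% at day 1.

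The effect differed between the 4 days for 2 of the 10 members, Itgb1 and Itgb5, against 4.84% of all genes. The same 2 members were called for the day 9 minus day 1 contrast, against 11.6% of all genes. Sham kidneys differed between days for 0 of the 10 members and 0% of all genes by limma's F test. At an unadjusted p under 0.05 that test counted 0 members and 938 of 17039 genes.

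The other integrin subunits moved more often than not in the same direction. Of 14 tested, 11 rose by the mean of the days and 2 fell, where 26.9% of all genes rose and 25.9% fell. Their median difference was 0.71, against -0.011 for all genes. The leukocyte chains Itgam (2.76 ± 0.19) and Itgb2 (1.02 ± 0.09), which form a receptor of macrophages and neutrophils, had the lowest p, with Itgb4 (1.10 ± 0.11), the beta chain of the hemidesmosome, and Itga4 (0.64 ± 0.09), a partner of beta 1 on leukocytes. The 2 that fell, named after their values were seen, were Itga2b (-0.51 ± 0.11) and Itgae (-0.76 ± 0.12). The effect differed between days for 1 of the 14, Itga4, a share near the 4.84% of all genes.

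Among the matrix and TGF-beta ligands of these receptors, 19 of 25 rose and 1 fell (Lama3, a laminin chain, at -0.26 ± 0.09), with a median of 1.16. Of all genes, 26.9% rose and 25.9% fell by the mean of the days. Tgfbi, a matrix protein bound by several integrins, rose by 2.05 ± 0.16, Ccn1, a matricellular ligand of alpha v receptors, by 1.92 ± 0.17, Tgfb1, whose latent form is bound by alpha v receptors, by 1.16 ± 0.11, and Col1a2, a chain of type I collagen, by 2.23 ± 0.23. At day 1, 4 of the 25 were called higher, against 7.99% of all genes, and at day 9 it was 19, against 20.5%. Singled out after their values were seen, Fn1, the fibronectin ligand of the Itga5 product, differed by -0.046 at day 1 (adjusted p = 0.937), 0.94 at day 2 (adjusted p = 0.0275), 1.15 at day 5 (adjusted p = 0.00549) and 1.78 at day 9 (adjusted p = 5.40e-05). Its timing was not tested against that of Itga5. Npnt, the nephronectin ligand of the Itga8 product, was not called (-0.37 ± 0.17, adjusted p = 0.0727), and neither was Itga8.

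Of the adhesion complex, the proteins that tie integrin tails to actin, 15 of 26 genes rose and 3 fell, with a median of 0.28. The shares of all genes were 26.9% and 25.9%. Apbb1ip, which recruits talin to integrins in leukocytes, rose by 1.86 ± 0.16. Zyx, Vcl and Actn1, which encode the actin-linked proteins zyxin, vinculin and alpha-actinin 1, rose by 0.98 ± 0.09, 0.98 ± 0.09 and 1.02 ± 0.10. The 3 that fell, named after their values were seen, were Tln2 (-0.80 ± 0.13), Tns1 (-0.47 ± 0.08) and Itgb1bp1 (-0.17 ± 0.06), which encode a talin, a tensin and a protein that binds the beta 1 tail. The more general talin, Tln1, was not called (-0.098 ± 0.072).

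**Figure D4:**
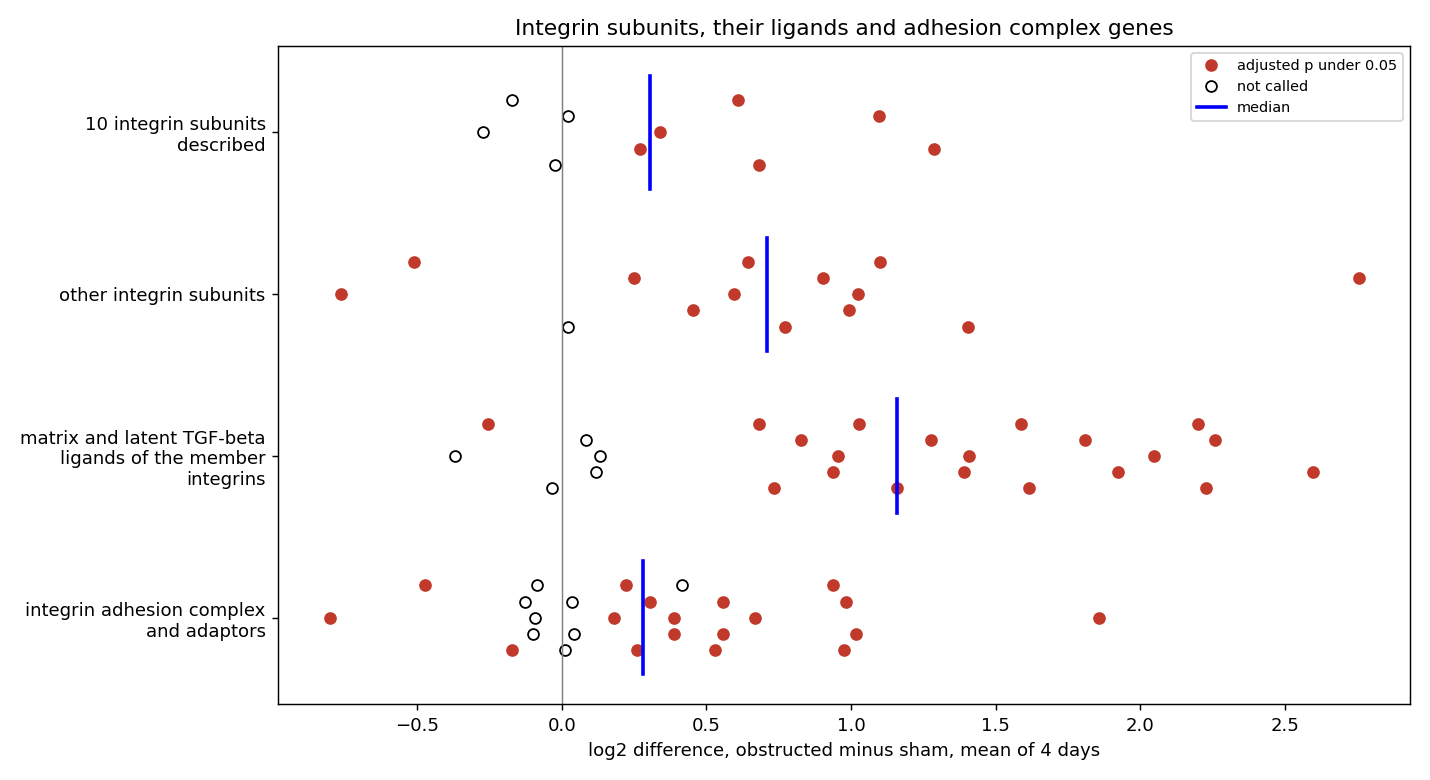
Difference in log2 ratio, obstructed minus sham, by the mean of the 4 days (horizontal axis) for each gene of 4 lists (rows); filled red points have an adjusted p under 0.05 and blue lines are list medians, with vertical scatter for legibility only. The ligand list has the highest median, 1.16, and the 10 subunits have a median of 0.31.

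Marker counts by the mean of the days are read against 26.9% of all genes called higher and 25.9% called lower. Of 11 monocyte, macrophage and granulocyte markers 11 rose (Fcgr1 2.53 ± 0.20, Cd14 3.51 ± 0.30), and the list's mean log2 ratio was 0.30 to 2.52 in obstructed and -1.04 to 0.21 in sham kidneys. Of 11 fibroblast, myofibroblast and pericyte markers 9 rose (Thy1 2.36 ± 0.17, Tagln 2.07 ± 0.16), with a mean of -0.24 to 2.08 in obstructed and -1.003 to 0.24 in sham kidneys. Urothelial markers rose in 5 of 8 genes (Krt14 2.44 ± 0.21, Krt5 0.86 ± 0.14), with means of 0.75 to 3.05 in obstructed and 0.51 to 1.72 in sham kidneys. Platelet markers rose in 4 of 8 genes (Pf4 2.44 ± 0.20, Ppbp 3.16 ± 0.46) and fell in 1, Itga2b, which is also among the other integrins, with means of -0.98 to 0.48 in obstructed and -1.44 to -0.78 in sham kidneys. The part of these cells in the rises of Itgav, Itga5, Itgb1, Itgb3 and Itgb5 was not tested.

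The tubular markers went the other way. Of 10 proximal tubule markers 8 fell (Gatm -2.52 ± 0.27, Cubn -1.24 ± 0.16), and of 9 markers of the thick ascending limb, distal tubule and collecting duct 7 fell (Slc12a1 -1.46 ± 0.15, Aqp2 -0.59 ± 0.08), with means of 4.61 to 5.40 in obstructed and 5.41 to 5.87 in sham kidneys. At day 9, where Itgb8 was lower, 9 of the 10 and 6 of the 9 were called lower, against 20.8% of all genes. The part of the tubular cells in the difference of Itgb8 was not tested. Podocyte markers fell in 3 of 6 genes and rose in 1 (Cdkn1c -0.54 ± 0.08, Podxl -0.53 ± 0.10), with means of 1.95 to 2.22 in obstructed and 2.16 to 2.49 in sham kidneys. Of 10 endothelial markers 3 were called lower and 1 higher (Ehd3 -0.68 ± 0.09, Egfl7 0.27 ± 0.08), with means of 3.25 to 3.83 in obstructed and 3.53 to 3.90 in sham kidneys. Of 6 mesangial markers 2 were called lower and 1 higher (Agtr1a -0.65 ± 0.11, Pdgfrb 1.32 ± 0.17, which is also in the fibroblast and pericyte list), with means of 0.53 to 1.99 in obstructed and 0.81 to 1.48 in sham kidneys. In both lists the share called lower was near the 25.9% of all genes, and the share called higher was below 26.9%. Because values are ratios to a reference, it cannot be read from them whether a marker was absent.

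For the 2 members with the most positive mean difference, Itgav and Itga5, and the 2 with the most negative, Itgb8 and Itgb6, which were not called, the genes of most similar pattern were looked up by Pearson's r over the 21 replicates, among 15338 genes. Itgav was followed most closely by Cd9 (r = 0.970), a membrane tetraspanin known to associate with integrins, by Klf6 (0.960), a zinc finger transcription factor induced by injury, and by Ift43 (0.958), a part of the transport machinery of cilia. Itga5 was followed by Cttnbp2nl (0.976), Pdlim7 (0.969), an actin-associated PDZ and LIM protein, and Ap3s1 (0.965), a subunit of a vesicle adaptor complex. Itgb8 was nearest to Clcn6 (0.828), Reep6 (0.814) and Tpcn1 (0.804), of which Clcn6 and Tpcn1 encode transporters of endosomal membranes. Itgb6 was nearest to Rcan2 (0.851), a regulator of calcineurin, Crym (0.838), which binds thyroid hormone, and Dnlz (0.8295). The 21 points hold both operations and 4 days, so that genes which differ between obstructed and sham kidneys correlate through that difference.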

How the data were processed

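Mouse kidney RNA (Cy5) and reference RNA (Cy3) were read on 22 two-channel arrays, with the dye order given in the labels. The unit of the deposited values is not in the labels: a log10 scale, kidney over reference, was inferred from their range of -3.11 to 4, where the planned tests had assumed log2. How the authors corrected background and normalized dyes is not given in the sources used here. Values were multiplied by 3.32 to give log2, exact zeros (5147 to 9271 per array) were set to missing, each array's median was subtracted, and spots with 1 annotated gene (33653 of 45220; 56 had several) and a value on at least 18 arrays were averaged per gene, leaving 17039 genes. Signal over background could not be examined.

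Sham arrays S03L and S03R, which share a number, were averaged (r = 0.954), leaving 21 replicates. The labels do not explain the letters L and R. The arrays marked R (S03R and S06R of day 1 and S39R of day 2) are all sham, and every obstructed array is marked L. At those days the letter is therefore not balanced between the operations. With arrays marked L alone, S03L and S08L are the only sham arrays of those days, so the part of the letter could not be tested. The only hint of a batch is an image folder, 4 arrays being in folder 1. A limma (3.58.1, R 4.3.3) fit of 8 group means with eBayes gave the contrasts at each day, their mean, day 9 minus day 1, and F tests between days, with Benjamini-Hochberg adjustment at 0.05. It was tested on simulated data.

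The members and lists were chosen with earlier results of these data known. Named were all members, the 4 genes of lowest p in each of 3 pathway lists, the 2 in each marker list, and the 3 genes most correlated with 4 members; others are marked as chosen after their values were seen. Alternatives left out each replicate and changed scaling, filters, spots, batches and arrays.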

Additional observations from a re-analysis of the deposited data

Results flagged for a closer look

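Itga1 in obstructed replicate S09 of day 9 had a log2 ratio of 4.69, far from the 3 others of its group at 3.75 to 3.89, and its gap to the nearest divided by the group's range, 0.852, exceeded Dixon's critical value for 4 samples. About 1 in 20 such groups exceeds it by chance. The S09 array also had the fewest measured spots of the series, 35747, and the most exact zeros, 9271. Whether this bears on its Itga1 value was not tested. Without S09 the difference of Itga1 at day 9 was -0.041, against 0.18 with it, and neither was called.

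The effect of obstruction differed between the days for Itgb1 (adjusted p = 0.0355) and for Itgb5 (adjusted p = 0.00735) by limma's F test. With the image folder as a block the call was lost for Itgb1 (adjusted p = 0.0517) and held for Itgb5 (adjusted p = 0.0199), and leaving out 1 replicate at a time it was lost for Itgb1 in 7 of 21 fits and for Itgb5 in 0. The effect at day 9 exceeded that at day 1 by 1.00 log2 units for Itgb1 and by 1.43 for Itgb5 (adjusted p = 0.00613 and 0.00182). For Itgb5 all 3 obstructed replicates lay below the sham replicates at day 1 and all 4 lay above them at day 9.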

How the results depend on the processing

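The rises of Itga3, Itga5, Itgav, Itgb1, Itgb3 and Itgb5 by the mean of the days were called in all 35 settings, with values of 0.29 to 0.58, 0.64 to 1.16, 1.05 to 1.35, 0.58 to 0.73, 0.54 to 0.67 and 0.21 to 0.35. Itgb8 was called lower in 2 of the 35, and Itga1, Itga8 and Itgb6 in 0. Taken by themselves, 1 spot of Itga3 (-0.17) and 1 of Itgb3 (-0.10) had the opposite sign to their gene, neither of them called.

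Counts at single days were less stable. Leaving out 1 replicate at a time gave 1 to 3 members higher and 0 to 1 lower at day 1, 0 to 3 higher at day 2, 3 to 6 higher at day 5, 4 to 6 higher and 0 to 1 lower at day 9, 6 higher and 0 to 1 lower by the mean of the days, 1 to 2 that differed between days and 2 to 3 for day 9 minus day 1. At day 1, arrays marked L alone and image folder 2 alone each gave 1 member higher and 0 lower, the day's arrays alone gave 0 and 0, and the folder as a block gave 0 lower. At day 2 the number higher was 1 with exact zeros kept as ratios of 1, with each probe by itself, and without the 2 arrays with over 8000 zeros (chosen after seeing the data), and 0 with arrays marked L alone. At day 5 it was 1 in folder 2 alone, 0 in folder 1 alone and 3 with the day's arrays alone, settings with fewer arrays. At day 9 the number lower was 0 under quantile normalization, with the median of a gene's probes and with the day's arrays alone. By the mean of the days 1 was lower with the folder block (Itgb8, -0.31, adjusted p = 0.0361) and with each probe by itself. The number that differed between days was 1, Itgb5, with the folder block and with the Itgb1 repeats averaged first, and 0 in folder 2 alone. Apart from the settings with fewer arrays, the cause was not tested.

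Scaling moved the balance of all genes: 4588 were called higher and 4410 lower by the mean of the days, against 4049 and 5177 with no centring and 3556 and 4988 under quantile normalization, while the median of all genes stayed within 0.075 of 0. No paired analysis was possible because the groups share no replicate numbers. Numbers of arrays limit all values, and with 2 sham replicates a day a single one can decide a call.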
